A study of Mus musculus with 6 samples.

Results

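Synucleins and genes of inherited Parkinson disease were followed in the adult mouse cerebellum. The 8 genes, chosen by name, were the synuclein genes Sncb and Sncg, the kinase genes Lrrk2 and Pink1, and Park7, Vps35, Uchl1 and Fbxo7. Each was found once among the 56748 genes of the count table, and all 8 had enough counts to be among the 16859 genes tested. MeHg animals were C57BL/6J offspring of dams that drank 0.2 ppm methylmercury, an organic mercury compound toxic to neurons, from conception to birth. Control animals were C57BL/6J offspring of dams given 0 ppm. There were 3 animals in each group, aged 90 to 120 days, and RNA came from the whole cerebellum. By label each group held 2 females and 1 male. No label names the dam or litter, so p-values measure the spread between these 6 animals, some of which may have shared a litter.

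Synucleins are small soluble proteins concentrated at presynaptic terminals, where they bind vesicle membranes. The other products act along connected routes. Pink1 and Park7 guard mitochondria, Lrrk2 and Vps35 steer vesicle and endosome traffic, and Uchl1 and Fbxo7 belong to the ubiquitin system. Human mutations in several of these genes cause parkinsonism, and the deposited series title names neurodegenerative disease as its subject. The comparison asked whether the genes differed in RNA level, months after the exposure had ended.

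The start regions of Sncb, Sncg and Lrrk2 are shown because these genes had the smallest p-values of the 8. RefSeq gives windows of 300 bases, from 250 before to 50 after the start, on GRCm38.p6, and 7 of the 8 genes matched an entry, with none for Vps35. Each window was found once in GRCm39, the same assembly as mm39, by exact match, on the minus strand at chr13:54914359-54914658 for Sncb, on the minus strand at chr14:34096577-34096876 for Sncg and on the plus strand at chr15:91557177-91557476 for Lrrk2. Capitals mark the GC box, GGGCGG on either strand.
Sncb: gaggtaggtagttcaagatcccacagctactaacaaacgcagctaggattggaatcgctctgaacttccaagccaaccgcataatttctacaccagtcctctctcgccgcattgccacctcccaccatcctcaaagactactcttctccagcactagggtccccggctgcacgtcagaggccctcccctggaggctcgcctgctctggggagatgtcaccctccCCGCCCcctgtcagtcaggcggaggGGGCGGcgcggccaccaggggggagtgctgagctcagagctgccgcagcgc
Sncg: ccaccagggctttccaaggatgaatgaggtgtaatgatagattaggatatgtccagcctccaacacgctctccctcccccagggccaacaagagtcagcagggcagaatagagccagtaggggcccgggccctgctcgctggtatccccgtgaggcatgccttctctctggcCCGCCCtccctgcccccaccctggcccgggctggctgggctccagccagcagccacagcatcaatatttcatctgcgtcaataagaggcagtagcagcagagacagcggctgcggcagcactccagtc
Lrrk2: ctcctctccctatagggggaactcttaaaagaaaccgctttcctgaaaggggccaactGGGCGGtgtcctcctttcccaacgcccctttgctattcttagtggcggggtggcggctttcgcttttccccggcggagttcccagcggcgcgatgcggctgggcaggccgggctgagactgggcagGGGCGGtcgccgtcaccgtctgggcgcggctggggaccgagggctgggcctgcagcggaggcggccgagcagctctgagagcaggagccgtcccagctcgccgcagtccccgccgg
The GC box occurred 2 times in the Sncb window, 1 time in that of Sncg and 2 times in that of Lrrk2, and at least 1 time in 35.7% of all 32851 windows. The core of the metal response element, TGCACNC or TGCGCNC on either strand, did not occur in these 3 windows and occurred in 25.7% of all windows. The core of the antioxidant response element, TGACNNNGC on either strand, was likewise not in these 3 and was in 12.4% of all windows. In the windows not shown, the metal response element core occurred 1 time each for Park7, Pink1 and Uchl1. For Fbxo7 it occurred 3 times in each of 2 windows. These windows overlap, a match in their shared stretch is counted in both, and some matches overlap each other. No marked match overlapped a match to another of these motifs.

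Levels are given in CPM, counts scaled to the effective size of each library. The total count was 14487022 to 15975367 in MeHg libraries and 14116088 to 20303833 in Control libraries. Control replicate 2, labelled female, held 0.249 CPM of Xist and 87.2 CPM of the Y-linked gene Ddx3y, levels seen otherwise in the libraries labelled male. MeHg replicate 2 was the male of its group by label, with 0.131 CPM of Xist and 86.5 CPM of Ddx3y. In MeHg, sex thus cannot be told apart from other features of that library. Fits without it compare MeHg females with Control libraries of both sexes. Granule cell markers, 15 genes led by Gabra6, were abundant in every library, as the label of cerebellum implies, and summed to 6417 to 7432 CPM in MeHg and 8664 to 9250 CPM in Control. Of these 15 genes 0 had a positive log2 fold change. By edgeR 14 were lower in MeHg at an unadjusted p under 0.05, against 12.7% of all tested genes. At an adjusted p under 0.05, 6 were lower, against 1.79% of all tested genes. The part of granule cells in the differences of the 8 genes was not tested. Purkinje cell markers, also 15 genes, summed to 10552, 8273 and 9376 CPM in MeHg replicates 1, 2 and 3 and 10502 to 11472 CPM in Control. MeHg replicate 1 was thus within the Control range. By edgeR 0 of the 15 were higher and 3 lower at an unadjusted p under 0.05, against 11.8% and 12.7% of all tested genes. Of these 1 was lower at an adjusted p under 0.05, against 1.79% of all tested genes. In such bulk RNA, fewer cells of a type and less RNA per cell cannot be told apart. MeHg replicate 2 stood apart in 18 brainstem and midbrain neuron markers, which summed to 410 CPM there, against 74 and 92 CPM in MeHg replicates 1 and 3 and 41 to 86.3 CPM in Control. Choroid plexus markers, 13 genes, summed to 2619 to 10353 CPM in MeHg and 157 to 3177 CPM in Control. By edgeR 8 of the 13 were higher and 0 lower at an unadjusted p under 0.05, and 0 had an adjusted p under 0.05. Ependymal cell markers, 9 genes of which 8 were tested, summed to 135 to 185 CPM in MeHg and 107 to 117 CPM in Control. By edgeR 6 of the 8 were higher and 0 lower at an unadjusted p under 0.05. At an adjusted p under 0.05, 2 were higher. Of all tested genes 11.8% were higher at the unadjusted and 0.575% at the adjusted threshold.

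The 8 genes leaned both ways in MeHg cerebellum without any passing the test. Sncb, Sncg, Park7 and Pink1 lay above Control in every library, and Lrrk2 and Vps35 below it. By edgeR's quasi-likelihood test 0 of 8 had an adjusted p under 0.05 (Benjamini-Hochberg), against 2.36% of all tested genes, 0.575% higher and 1.79% lower in MeHg. The count of 0 stands beside 7 of 8 at an unadjusted p under 0.05, 5 higher and 2 lower in MeHg. Of all tested genes 24.5% had such a p, 11.8% higher and 12.7% lower. The 8 genes were chosen with earlier results of these data known, so counts set beside such shares do not test them as a set. DESeq2 called 2 of the 8, Sncb and Lrrk2, and 9.02% of all genes it tested. Limma-voom called 0 of the 8 and 2.12% of all genes, and limma on log2 FPKM called 0 of either. In 6 of the 8 the libraries of the groups did not overlap, 4 with MeHg above and 2 with MeHg below, against 29.4% of all tested genes. Without MeHg replicate 2 the edgeR test called 2 of the 8, Sncb and Lrrk2, and 6.33% of all genes. It called 0 of the 8 without Control replicate 2, with 1.29% of all genes, and 2 without both libraries, again Sncb and Lrrk2, with 10.3%. Without a filter on low counts 4 were called, Sncb, Sncg, Lrrk2 and Uchl1, with 7.38% of all genes. In that fit the SE was smaller for Sncg (0.24, against 0.53 with the filter), Uchl1 (0.10 against 0.28) and Lrrk2 (0.09 against 0.12). For Sncb it was larger (0.08 against 0.06). Log2 fold changes were nearly the same, at 1.87, 0.64, -0.51 and 0.29.

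**Figure D1:**
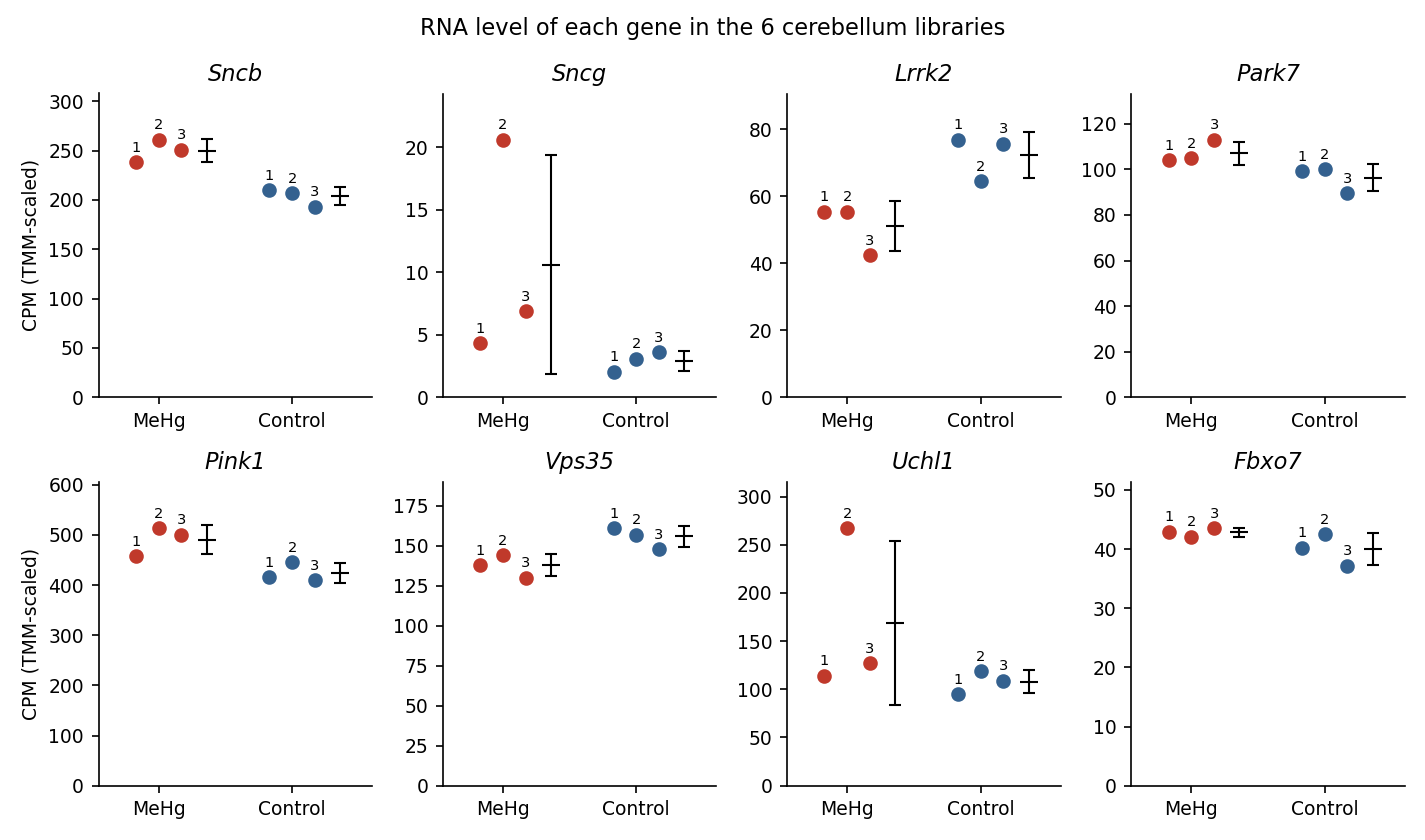
Level of each gene in CPM, with 1 point per library numbered by replicate, MeHg left and Control right, and the mean with SD in black (n = 3 each). Sncb lies between 238 and 261 CPM in MeHg and between 193 and 210 CPM in Control, while the wide SD of Sncg and Uchl1 in MeHg comes with replicate 2, at 20.6 and 267 CPM.

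Sncb encodes beta-synuclein and lies on chromosome 13 at 54906673 to 54914408 of mm39 (ENSMUSG00000034891). Its level was 238, 261 and 251 CPM in MeHg replicates 1, 2 and 3, against 210, 207 and 193 CPM in Control replicates 1, 2 and 3. The lowest MeHg library thus lay above the highest Control library, and the spread within each group was narrow, with a coefficient of variation of 4.56% in MeHg and 4.57% in Control. The mean was 250 ± 11.4 CPM in MeHg and 204 ± 9.31 CPM in Control (SD, n = 3 each), a log2 fold change of 0.29 ± 0.06 (SE, edgeR adjusted p = 0.0507), or 1.23-fold. This gene had the smallest p of the 8 and missed the threshold narrowly. DESeq2 gave it an adjusted p of 0.00589, and edgeR an adjusted p of 0.036 without MeHg replicate 2 and 0.0813 without Control replicate 2. When each library was corrected for a trend of counts with gene length and GC content, the log2 fold change was 0.08 ± 0.06 (edgeR adjusted p = 0.476).

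Sncg encodes gamma-synuclein, known mainly from sensory, motor and monoamine neurons, and lies on chromosome 14 at 34092231 to 34096746 (ENSMUSG00000023064). It was the scarcest of the 8 in counts, with 70, 315 and 102 counts in MeHg replicates 1, 2 and 3 and 40, 62 and 50 counts in Control replicates 1, 2 and 3. In CPM this was 4.33, 20.6 and 6.88 in MeHg, against 2.03, 3.09 and 3.59 in Control. All 3 MeHg libraries lay above all Control libraries, and MeHg replicate 2 stood far above the other MeHg libraries. The log2 fold change of 1.88 ± 0.53 (SE, edgeR adjusted p = 0.0845), or 3.67-fold, was the largest of the 8 in size. Without MeHg replicate 2 it was 0.97 ± 0.29 (edgeR adjusted p = 0.0783), and without Control replicate 2 it was 1.93 ± 0.66 (edgeR adjusted p = 0.141). With labelled sex as a term the edgeR adjusted p was 0.044 for Sncg and 0.0497 for Lrrk2, and the label of Control replicate 2 entered that fit as given.

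The balance between the synucleins differed by library on the FPKM scale, which allows for gene length. Sncg made up 4.38%, 16.6% and 6.46% of the summed FPKM of Sncb and Sncg in MeHg replicates 1, 2 and 3, against 2.37%, 3.62% and 4.48% in Control replicates 1, 2 and 3. The share in MeHg replicate 1 was within the Control range, and those of MeHg replicates 2 and 3 lay above it. Sncb was the more abundant of the pair in every library, by 5.02 times in MeHg replicate 2 and by 41.2 times in Control replicate 1, the extremes of the 6.

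Uchl1, on chromosome 5 at 66833434 to 66844577 (ENSMUSG00000029223), encodes a ubiquitin hydrolase abundant in neurons. It was at 114, 267 and 127 CPM in MeHg replicates 1, 2 and 3, against 95.1, 119 and 109 CPM in Control replicates 1, 2 and 3. The groups overlapped, since MeHg replicate 1 lay below Control replicate 2, and MeHg replicate 2 again stood apart. The log2 fold change was 0.65 ± 0.28 (SE, edgeR adjusted p = 0.195), and 0.17 ± 0.09 (edgeR adjusted p = 0.307) without MeHg replicate 2. The unadjusted p under 0.05 that Uchl1 had in all 6 libraries, 0.0448, was 0.104 without that library (edgeR).

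Brainstem and midbrain neuron markers were highest in MeHg replicate 2, as were Sncg and Uchl1. Sncb and Pink1 were also highest there, by a smaller margin, at 261 and 513 CPM against 251 and 500 CPM in MeHg replicate 3. Of the 18 markers 16 were highest in MeHg replicate 2, among them Tph2, the serotonin synthesis enzyme, at 67.5 CPM there, 0.556 and 1.48 CPM in MeHg replicates 1 and 3 and 0.203 to 0.948 CPM in Control. The dopamine transporter gene Slc6a3 was at 20.7 CPM in MeHg replicate 2, at 0 and 0.135 CPM in MeHg replicates 1 and 3 and at 0 to 0.15 CPM in Control. The order of the 6 libraries by Uchl1 level was the same as by the summed markers, from Control replicate 1 up to MeHg replicate 2. The marker with the highest level in every library was Slc17a6. It was at 49.9, 103 and 48.4 CPM in MeHg replicates 1, 2 and 3 and 19.2 to 55.9 CPM in Control. Outside MeHg replicate 2 the sum thus came in large part from that gene. Sncg shared the lowest and the highest library with the markers but not the order between, since MeHg replicate 1 lay above Control replicate 2 in Sncg (4.33 and 3.09 CPM) and below it in the markers (74 and 86.3 CPM). Oligodendrocyte markers, 12 of 15 highest in MeHg replicate 2, summed to 9233 CPM there, 6977 and 7566 CPM in MeHg replicates 1 and 3 and 6123 to 6992 CPM in Control. Red blood cell markers, 5 of 5 highest in the same library, summed to 182 CPM there, 87.7 and 71.7 CPM in MeHg replicates 1 and 3 and 65.3 to 110 CPM in Control. The part of these cell types in the results for the 8 genes was not tested.

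**Figure D2:**
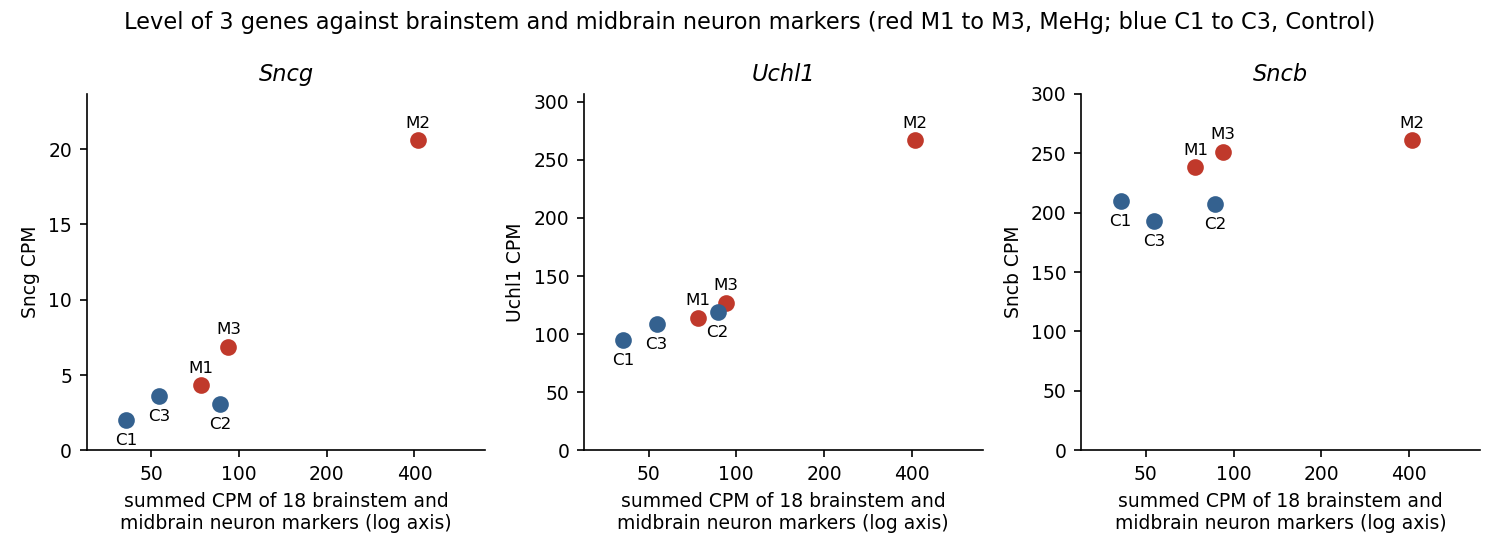
Level of Sncg, Uchl1 and Sncb in CPM against the summed CPM of 18 brainstem and midbrain neuron markers (log axis), 1 point per library, M1 to M3 for MeHg and C1 to C3 for Control. M2 lies alone at the right at 410 CPM, with the highest value of each gene, 20.6, 267 and 261 CPM.

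Lrrk2, on chromosome 15 at 91557378 to 91700323 (ENSMUSG00000036273), encodes a large kinase that phosphorylates Rab GTPases, the switches of vesicle traffic. It was at 55.4, 55.3 and 42.3 CPM in MeHg replicates 1, 2 and 3, against 76.8, 64.5 and 75.6 CPM in Control replicates 1, 2 and 3. Every MeHg library lay below every Control library, with MeHg replicate 3 the lowest. The mean was 51 ± 7.51 CPM in MeHg and 72.3 ± 6.83 CPM in Control (SD, n = 3 each), a log2 fold change of -0.50 ± 0.12 (SE, edgeR adjusted p = 0.0554), or 0.71-fold. DESeq2 gave an adjusted p of 0.00192, and edgeR gave 0.0288 without MeHg replicate 2 and 0.0585 without Control replicate 2. With a correction for length and GC the log2 fold change was -0.43 ± 0.11 (edgeR adjusted p = 0.0848).

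Pink1, on chromosome 4 at 138040720 to 138053618 (ENSMUSG00000028756), encodes a kinase that builds up on damaged mitochondria and marks them for removal. It was at 457, 513 and 500 CPM in MeHg replicates 1, 2 and 3, against 415, 446 and 409 CPM in Control replicates 1, 2 and 3. The groups came within a few per cent of each other, at MeHg replicate 1 and Control replicate 2, without overlapping. The log2 fold change was 0.21 ± 0.07 (SE, edgeR adjusted p = 0.124), and 0.07 ± 0.07 (edgeR adjusted p = 0.58) with a correction for length and GC.

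Park7, on the same chromosome at 150981590 to 150998894 (ENSMUSG00000028964), encodes DJ-1, a redox-sensitive protein that protects cells from oxidative stress. Its level was 104, 105 and 113 CPM in MeHg replicates 1, 2 and 3, against 99.3, 100 and 89.6 CPM in Control replicates 1, 2 and 3. The groups did not overlap, but the gap between them was smaller than the range within either. The log2 fold change of 0.15 ± 0.07 (SE, edgeR adjusted p = 0.2) was 0.01 ± 0.06 (edgeR adjusted p = 0.947) with a correction for length and GC.

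Vps35, on chromosome 8 at 85987021 to 86026431 (ENSMUSG00000031696), encodes the core of retromer, the complex that returns cargo from endosomes. It was at 138, 144 and 130 CPM in MeHg replicates 1, 2 and 3, against 161, 157 and 148 CPM in Control replicates 1, 2 and 3. The highest MeHg library lay just below the lowest Control library. The log2 fold change was -0.18 ± 0.06 (SE, edgeR adjusted p = 0.129), and -0.07 ± 0.06 (edgeR adjusted p = 0.518) with a correction for length and GC.

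Fbxo7, on chromosome 10 at 85857836 to 85887737 (ENSMUSG00000001786), encodes a substrate adaptor of a ubiquitin ligase. It was at 42.9, 42.1 and 43.5 CPM in MeHg replicates 1, 2 and 3, against 40.2, 42.5 and 37.2 CPM in Control replicates 1, 2 and 3. The groups overlapped, and this was the steadiest gene of the 8 among MeHg animals, with a coefficient of variation of 1.66%. Its log2 fold change was 0.10 ± 0.08 (SE, edgeR adjusted p = 0.484).

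**Figure D3:**
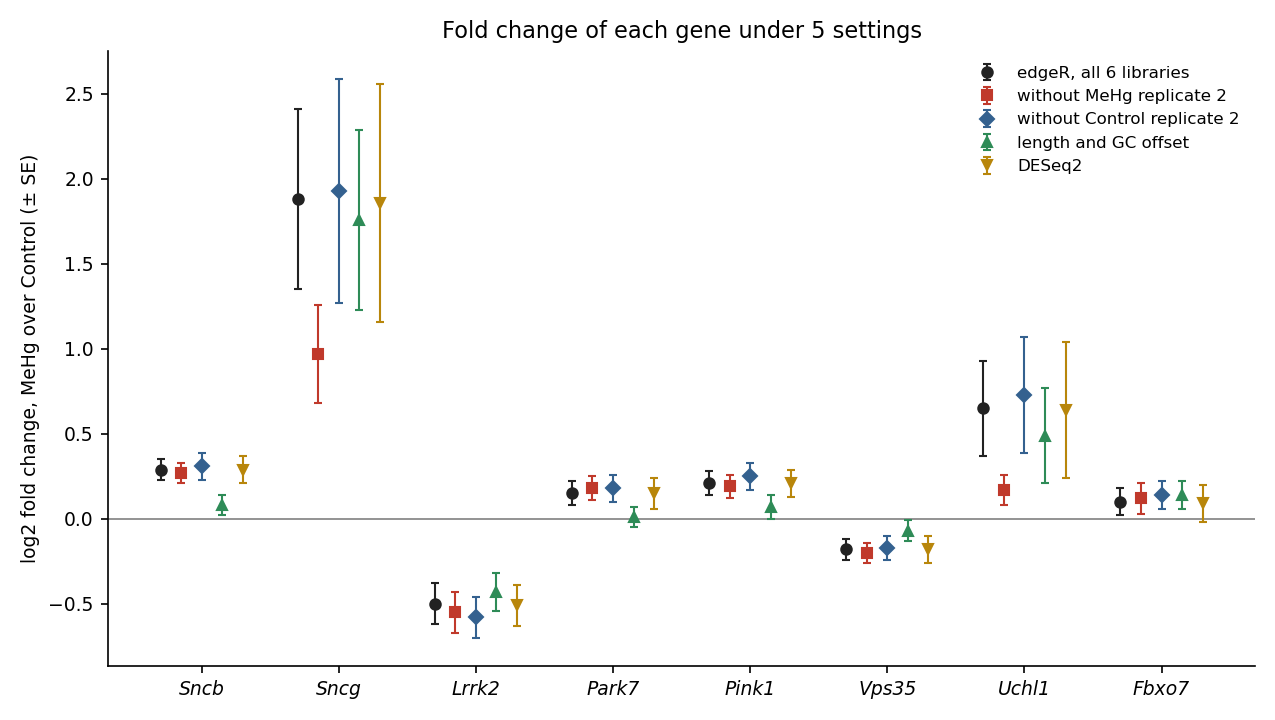
Log2 fold change of MeHg over Control with its SE for each gene, fitted by edgeR in all 6 libraries, without MeHg replicate 2, without Control replicate 2 and with a correction for length and GC, and by DESeq2. Sncg and Uchl1 are lower without MeHg replicate 2, at 0.97 and 0.17, and Sncb, Park7, Pink1 and Vps35 lie nearest to 0 with the correction, at 0.08, 0.01, 0.07 and -0.07.

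The longest and the shortest of the 8 genes differed in sign. Lrrk2 and Vps35, which lay below Control, were the longest of the 8 in the deposited table, at 11834 and 8899 bp, followed by Fbxo7 at 6180 bp. The 5 others, all with a positive log2 fold change, had 852 bp (Sncg), 1632 bp (Uchl1), 2145 bp (Sncb), 2479 bp (Park7) and 2673 bp (Pink1). Over all tested genes the median log2 fold change was 0.10 in genes of up to 2414 bp, 0.04 from 2415 to 4105 bp, -0.01 from 4106 to 6478 bp and -0.09 from 6480 bp. With a correction for length alone the log2 fold change was 0.18 ± 0.06 for Sncb, 0.11 ± 0.06 for Pink1, -0.44 ± 0.11 for Lrrk2 and -0.16 ± 0.06 for Vps35 (edgeR adjusted p = 0.131, 0.314, 0.0687 and 0.14). With a correction for GC content alone it was 0.12 ± 0.06 for Sncb, 0.10 ± 0.07 for Pink1, -0.53 ± 0.12 for Lrrk2 and -0.13 ± 0.06 for Vps35 (edgeR adjusted p = 0.282, 0.423, 0.0482 and 0.264). Sncb and Vps35 lay closer to 0 with the GC correction than with that for length, and Lrrk2 passed the threshold with the GC correction.

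**Figure D4:**
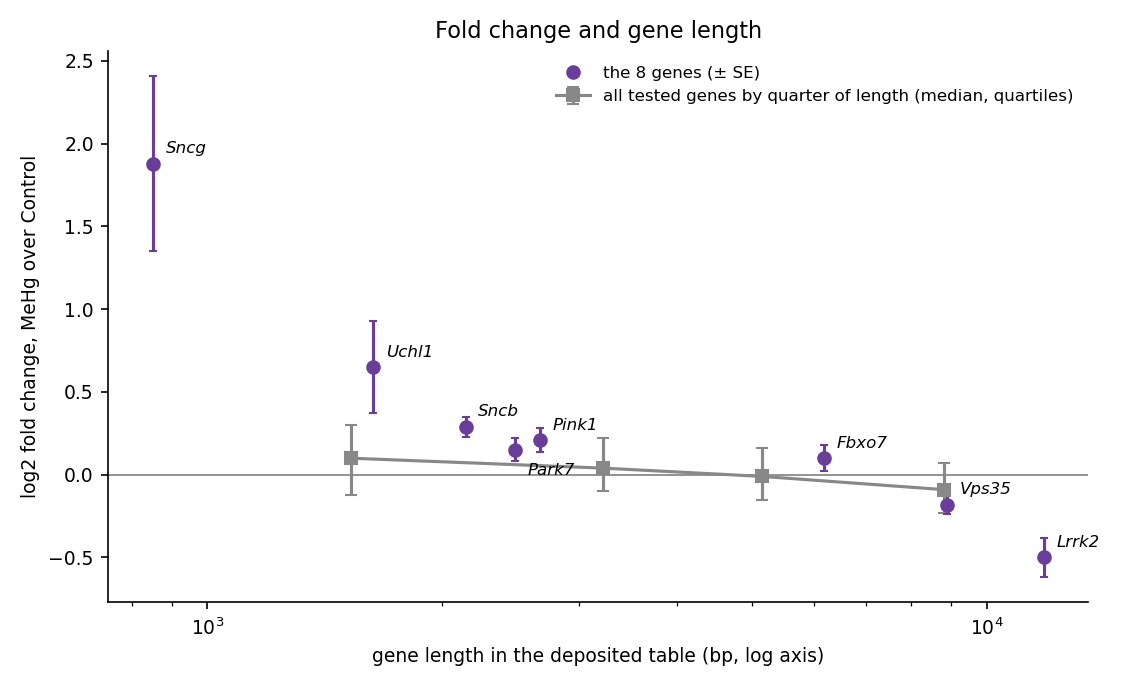
Log2 fold change of MeHg over Control against gene length (log axis) for the 8 genes with SE, and for all tested genes as the median and quartiles of 4 groups of genes of increasing length. The grey medians run from 0.10 in the shortest group to -0.09 in the longest, and Sncg, Uchl1 and Lrrk2 lie outside the quartiles drawn nearest to them.

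Levels could be compared between genes only per length, so FPKM were used. Pink1 was highest in every library, at 171 ± 9.53 FPKM in MeHg and 149 ± 6.67 FPKM in Control (SD, n = 3 each), and Park7, at 40.4 ± 2.13 and 36.5 ± 2.23 FPKM, followed Sncb and Uchl1 in all 6. Sncb, at 109 ± 4.44 FPKM in MeHg and 89.2 ± 4.09 FPKM in Control, came second except in MeHg replicate 2, where Uchl1 did. Uchl1, at 96.6 ± 47.7 FPKM in MeHg, did not differ from Sncb beyond its spread there, whereas in Control it was at 62.1 ± 6.88 FPKM. Vps35 followed at 14.4 ± 0.61 FPKM in MeHg and 16.4 ± 0.709 FPKM in Control. The lowest 3 genes changed places, since Sncg was at 11.6 ± 9.47 FPKM in MeHg, a spread that covered both Vps35 and Fbxo7, and at 3.2 ± 0.878 FPKM in Control, below all others. Fbxo7, at 6.47 ± 0.155 and 6.08 ± 0.393 FPKM, and Lrrk2, at 4.02 ± 0.574 and 5.74 ± 0.555 FPKM in MeHg and Control, were apart in MeHg and within their spread of each other in Control.

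Profiles over the 6 libraries were compared by the root mean square difference between log2 CPM values centred on each gene's mean. Among the 8, Park7 and Fbxo7 were nearest at 0.0463, Sncb and Pink1 were 0.0588 apart, and Sncg and Lrrk2 were farthest at 1.24. Among 10221 other genes (10222 for Sncg) with at least 10 CPM on average, the profile nearest to that of Sncb was that of Dtd1 (0.0252), followed by Polr2m (0.0267). Lrrk2 was nearest to Clvs1 (0.0344) and Smc2 (0.0413), and Uchl1 to Tmem130 (0.0734) and Rassf4 (0.0786). The genes nearest to Sncg were Zcchc12 (0.361) and Basp1 (0.368). This distance is smaller for genes that vary little, and each gene's own root mean square deviation was 1.04 for Sncg, 0.482 for Uchl1, 0.296 for Lrrk2, 0.157 for Sncb and 0.0761 to 0.123 for the others. Their nearest genes were Prkra (0.0136) and Nudt9 (0.0201) for Pink1, Pls3 (0.0145) and Elavl4 (0.0151) for Vps35, Wbp2 (0.018) and Cmpk1 (0.0184) for Fbxo7, and Mfsd12 (0.0188) and Ptp4a2 (0.0199) for Park7.

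The wider pathways were read from 7 lists with 151 tested genes besides the 8. Of these 1 rose and 2 fell at an adjusted p under 0.05 (edgeR), or 1.99%, against 2.36% of all tested genes, and their median log2 fold change was -0.02, against 0.00621 for all tested genes. The 2 that fell were Dnajc13 and Fbxl5. Without MeHg replicate 2 both were called again, among 15 list genes, with an adjusted p of 0.0223 for Dnajc13 and 0.0191 for Fbxl5 (edgeR). Neither was called when any other library was left out, Control replicate 2 included, with adjusted p from 0.0623 for Fbxl5 without Control replicate 2 to 0.208 for Dnajc13 without Control replicate 3. With a correction for length and GC 0 of the 151 were called, as were 0 of all genes, and DESeq2 called 16, with 9.02% of all genes. Limma-voom called 4, with 2.12% of all genes, and limma on log2 FPKM 0, with 0 of all genes.

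Among other genes linked to Parkinson disease, edgeR called 0 of 25 higher and 1 lower in MeHg, the median being -0.01 on the log2 scale. The list held 2 genes higher and 3 lower at an unadjusted p under 0.05, against 11.8% and 12.7% of all tested genes. DESeq2 called 0 higher and 3 lower, and limma-voom 0 higher and 1 lower. The gene that fell by edgeR was Dnajc13, whose product is a J-domain protein of endosomes, and it also belongs to the retromer list. It was at 67.3, 70.9 and 63.8 CPM in MeHg replicates 1, 2 and 3, against 83.8, 82 and 86.2 CPM in Control replicates 1, 2 and 3, a log2 fold change of -0.32 ± 0.06 (SE, edgeR adjusted p = 0.046). Vps13c, for a lipid transfer protein at organelle contacts, was at -0.57 ± 0.13 (edgeR adjusted p = 0.0532) and was among the genes DESeq2 called.

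In the retromer and sorting list, edgeR called 0 of 23 higher and 1, Dnajc13, lower, with a median of -0.05. DESeq2 called 0 higher and 4 lower, and limma-voom 0 higher and 2 lower, Sorl1 among them in both. At an unadjusted p under 0.05 the list held 0 genes higher and 7 lower in MeHg, against 11.8% and 12.7% of all tested genes. Sorl1, a sorting receptor that retromer carries, averaged 754 ± 64.1 CPM in MeHg and 992 ± 78.5 CPM in Control (SD, n = 3 each), a log2 fold change of -0.40 ± 0.09 (edgeR adjusted p = 0.0545). The groups of Sorl1 did not overlap, with at most 824 CPM in MeHg and at least 902 CPM in Control.

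For the synucleins' presynaptic partners, 0 of 21 genes were called by edgeR, with a median log2 fold change of -0.03. At an unadjusted p under 0.05, 2 were higher and 2 lower, against 11.8% and 12.7% of all tested genes. DESeq2 called 1 of the 21, lower in MeHg, and limma-voom 0. Rab3a, a GTPase of synaptic vesicles that Lrrk2 can phosphorylate, was at 442, 445 and 444 CPM in MeHg replicates 1, 2 and 3, against 384, 397 and 387 CPM in Control replicates 1, 2 and 3. Its groups were well separated, with a log2 fold change of 0.19 ± 0.06 (edgeR adjusted p = 0.101). Slc18a2, the vesicular monoamine transporter, was at 6.8, 60.7 and 10.5 CPM in MeHg, against 4.77, 6.14 and 5.1 CPM in Control (edgeR adjusted p = 0.106). It stood apart in MeHg replicate 2, like Sncg, and is also 1 of the 18 brainstem and midbrain markers.

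Of the Lrrk2 substrates and partners, 0 of 23 were called by edgeR and 0 by limma-voom. By edgeR 2 were higher and 2 lower at an unadjusted p under 0.05, against 11.8% and 12.7% of all tested genes. The gene that DESeq2 called was Spag9, for a scaffold protein, with an edgeR log2 fold change of -0.24 ± 0.08 (adjusted p = 0.104). Of the mitochondrial quality control list, 0 of 33 were called (edgeR, 3 higher and 4 lower at an unadjusted p under 0.05), with a median of 0.04, while DESeq2 called 1 higher and 1 lower and limma-voom 0. Usp15, a ubiquitin protease and the gene DESeq2 called lower, was at -0.34 ± 0.08 (edgeR adjusted p = 0.0604) and Rhot1, which ties mitochondria to their motors, was at -0.21 ± 0.06 (edgeR adjusted p = 0.0771).

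Of the Uchl1 and ubiquitin list, edgeR called 1 of 14 higher and 0 lower in MeHg, with a median of -0.03. The list held 3 genes higher and 2 lower at an unadjusted p under 0.05, against 11.8% and 12.7% of all tested genes. DESeq2 called 1 higher and 1 lower, and limma-voom 1 higher and 0 lower. The gene that DESeq2 called lower was Usp9x, for a deubiquitinase, with an edgeR log2 fold change of -0.51 ± 0.14 (adjusted p = 0.0766). Of the Fbxo7 ligase list, edgeR called 0 of 20 higher and 1 lower, with a median of -0.06. At an unadjusted p under 0.05, 1 was higher and 5 were lower, against the same 11.8% and 12.7% of all tested genes. DESeq2 called 1 higher and 3 lower, and limma-voom 0 higher and 1 lower. The gene that fell by edgeR was Fbxl5, an iron-sensing F-box protein gene, at 108, 112 and 108 CPM in MeHg replicates 1, 2 and 3 and 131, 139 and 140 CPM in Control replicates 1, 2 and 3 (-0.32 ± 0.06, edgeR adjusted p = 0.0431).

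**Figure D5:**
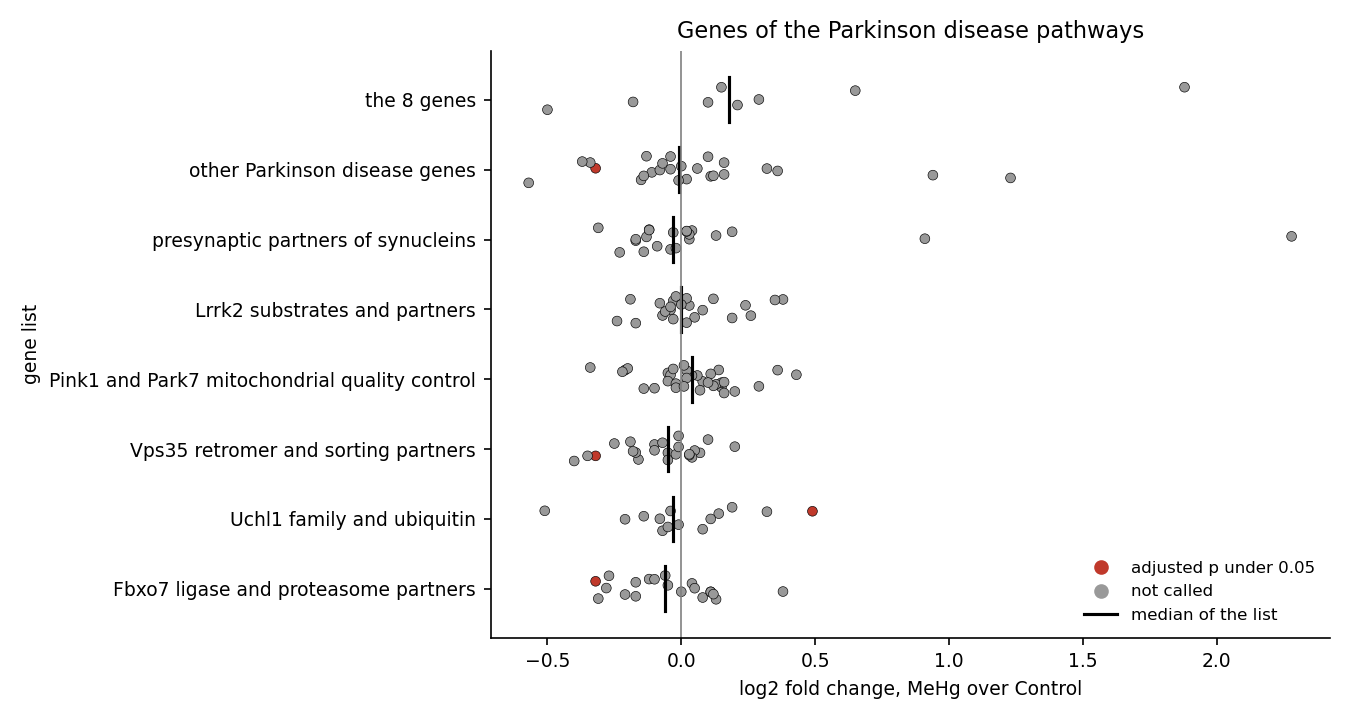
Log2 fold change of MeHg over Control for the 8 genes and for the tested genes of 7 pathway lists, 1 point per gene and list, red where the adjusted p is under 0.05 and grey otherwise, with the median of each list as a black bar. The list medians lie between -0.06 and 0.04, and that of the 8 genes at 0.18.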

How the data were processed

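RNA of 6 cerebella, 3 MeHg and 3 Control, was sequenced as 150-base read pairs, per the labels. The deposited gene counts are raw whole numbers, and the deposited FPKM, by their values, are the counts divided by gene length and a library total. The submitters' processing notes name mm39 and DESeq2. How reads were aligned, counted and assigned to strands is not given in the sources used here. In the deposited annotation Orc6 overlaps Vps35 by 171 bp on the opposite strand and Uchl1os, at most 0.203 CPM, overlaps Uchl1, so their reads may mix.

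Counts were filtered with filterByExpr, scaled by TMM and tested with edgeR 4.0.16 (R 4.3.3), group as the only term, with Benjamini-Hochberg adjustment over 16859 genes. The SE is the absolute log2 fold change over the square root of F. CPM use the scaled library size. The corrections for gene length and GC content, offsets in the edgeR fit, were loess fits per library (span 0.3).

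Genes named from each list were those called, up to 4 in each direction, and, where fewer than 2 were called, the 2 with the smallest p. For each of the 8, the 2 nearest profiles were named. The 8 genes, the lists and the alternatives were chosen with earlier results of these data known. DESeq2 was version 1.42.0 and limma version 3.58.1, and limma tests on FPKM used a pseudocount of 1 or 0.1. No 2 libraries of a group were copies, with a chi-square per degree of freedom of at least 7.729. A few genes of the lists are not reported by name.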

Additional observations from a re-analysis of the deposited data

How the results depend on the processing

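The log2 fold changes of all 8 genes kept their sign in each of 21 alternatives, ranging from 0.08 to 0.33 for Sncb, 0.97 to 2.25 for Sncg, -0.63 to -0.38 for Lrrk2, 0.01 to 0.20 for Park7, 0.07 to 0.26 for Pink1, -0.25 to -0.07 for Vps35, 0.16 to 0.87 for Uchl1 and 0.05 to 0.16 for Fbxo7. Of the 8 genes, 0 were called in all 6 libraries, 1 with DESeq2 size factors, upper-quartile scaling, a GC offset or a minimum mean of 5 CPM, 2 with DESeq2, with labelled sex as a term or without both libraries numbered 2, 3 at an adjusted p under 0.1, and 4 without a filter on low counts. Of all genes 398 were called in the main fit, 380 with DESeq2 size factors, 197 with upper-quartile scaling and 618 with a GC offset. The count was 370 with a minimum mean of 5 CPM, 609 with labelled sex as a term and 1653 at an adjusted p under 0.1. It was 1390 with DESeq2, 1723 without both libraries numbered 2 and 2378 without a filter. Leaving out 1 library gave 0 to 2 of the 8 called, the 2 without MeHg replicate 2. Of the genes of the pathway lists, 3 were called in all 6 libraries, 16 with DESeq2, 7 with a GC offset, 6 with labelled sex, 1 with upper-quartile scaling, 23 without a filter, 19 without both libraries numbered 2, 18 at an adjusted p under 0.1, and 0 with a length offset, a length and GC offset or either limma fit on log2 FPKM. The settings that gave 0 list genes called 0 of all genes as well. Leaving out 1 library gave 0 to 15 list genes, with 15 without MeHg replicate 2 and 1 without Control replicate 2. It gave 0 without Control replicate 1 or 3 or MeHg replicate 1 or 3. Of all genes 1091 were called without MeHg replicate 2, 220 without Control replicate 2 and 2 without MeHg replicate 1. There were 0 without Control replicate 1 or 3 or MeHg replicate 3. The cause was not tested. With the replicate number as a block, 1 of the 8 genes (Sncg, adjusted p = 0.049, edgeR) and 5 list genes were called. In that fit 648 of all genes were called. Same-numbered libraries deviated from their group means with correlations of 0.187, 0.346 and -0.236, and differently numbered ones with -0.431 to 0.358. With 3 libraries a group, these correlations cannot show whether the numbers pair the animals. Sncg rests on 40 to 315 counts a library, which limits its precision.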
